A study of Mus musculus with 14 samples.

Results

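Liver expression of 6 genes listed as higher under a continuous growth hormone pattern in mice, Abcd2, Rtn4, Ntrk2, Cyp2a4, Cyp17a1 and Prom1, was compared between 2 diets. They were chosen by symbol with earlier results of the diet comparison known, so their diet differences below are a description and carry no test. They are 6 of 37681 genes in the deposited count table, and all 6 were among the 17223 expressed highly enough to be tested. Polyadenylated liver RNA was sequenced from 14 mice, 1 library per mouse. Of these, 7 mice, called HFHS 1 to 7, ate a diet high in fat and sucrose, and the other 7, called LFLS 1 to 7, ate one low in both. No transgene, deletion or drug is named for either diet. The sources used here do not give strain, sex, age or length of feeding. The sample titles begin with the number 1 for HFHS 1 to 4 and LFLS 1 to 4 and with the number 2 for HFHS 5 to 7 and LFLS 5 to 7. What this title number marks is not in the labels, and values within each number are given beside the pooled ones.

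The pituitary releases growth hormone in separate pulses in male mice and more evenly in female mice. In hepatocytes the hormone acts through its receptor, the kinase JAK2 and the transcription factor STAT5B. The pattern of release sets much of the sex difference in liver expression, and genes favoured by the continuous pattern are higher in female liver. The 6 genes encode proteins of unlike function. Abcd2 is a peroxisomal transporter of very long chain acyl-CoA. Rtn4, also called Nogo, is a membrane-shaping protein of the endoplasmic reticulum. Ntrk2 is TrkB, the receptor of brain-derived neurotrophic factor. Cyp2a4 is a cytochrome P450 that hydroxylates steroids, Cyp17a1 is the 17-alpha-hydroxylase and 17,20-lyase of steroid synthesis, and Prom1 is prominin-1, a membrane protein also known as CD133.

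Total counts per library were 18.2 M to 45.4 M (M, mega) for HFHS mice and 18.3 M to 52.8 M for LFLS mice. All 14 were of the male type, with 4 to 13 counts of the female transcript Xist and 995 to 5983 counts of the Y-linked Ddx3y. Hepatocyte markers such as albumin summed to 55130 to 97200 CPM (counts per M of the library's scaled total) in HFHS libraries and 66260 to 110600 CPM in LFLS libraries. Some libraries stood apart. Exocrine pancreas markers summed to over 50 CPM in HFHS 4, 5 and 7 and in LFLS 2, 3 and 4, over ranges of 8.89 to 401 CPM in HFHS libraries and 8.98 to 1481 CPM in LFLS libraries. The highest were HFHS 5 and LFLS 2, and none of the 11 tested of the 12 markers passed the diet test. LFLS 1 to 4 stood apart as a block. The correlation of a gene's deviation with its GC content was -0.419 to 0.046 in HFHS libraries, 0.213 to 0.60 in LFLS 1 to 4 and -0.368 to -0.252 in LFLS 5 to 7. Mitochondrially encoded transcripts took 4.24 to 5.10% of counts in HFHS libraries, 1.40 to 3.77% in LFLS 1 to 4 and 4.32 to 4.91% in LFLS 5 to 7. Kupffer cell markers summed to 228 to 353 CPM in HFHS libraries, 375 to 391 CPM in LFLS 1 to 4 and 170 to 303 CPM in LFLS 5 to 7. The part of these differences in the values below was not tested, beyond a GC offset. In such whole-tissue RNA, fewer cells of a type and less RNA per cell cannot be told apart.

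The sequence of Cyp2a4 comes first because it limits what its counts can show. Its neighbour Cyp2a5, a coumarin 7-hydroxylase, has a coding sequence of the same 1482 bases that differs at 23 of them, an identity of 98.5%. The stretch below holds 4 of the 23 differing bases and is shown as a place where a 50-base read can tell the genes apart. It covers coding positions 596 to 655, counted from the A of the start codon in the GENCODE annotation of GRCm38, and capitals mark the bases that differ.
Cyp2a4: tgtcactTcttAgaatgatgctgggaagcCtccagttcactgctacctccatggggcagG
Cyp2a5: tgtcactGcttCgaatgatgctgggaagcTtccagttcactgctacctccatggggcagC
Elsewhere the genes are often the same for longer than a read. The longest identical run was 216 bases, and 38.2% of the 50-base windows of the coding sequence were identical. Of the 1689 stretches of 50 bases in the Cyp2a4 transcript, 655 (38.8%) also occurred in another gene, 609 of them in Cyp2a5. Rtn4, Ntrk2, Cyp17a1 and Prom1 shared no such stretch with another gene and Abcd2 shared 36 of 5483, so the uncertainty from shared reads bears mainly on Cyp2a4.

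The start regions of the pair are just as close. Both windows run from 250 bases before the annotated start to 50 bases after it, from RefSeq on GRCm38.p6, at chr7:26306942-26307241 for Cyp2a4 and chr7:26835089-26835388 for Cyp2a5, both on the plus strand. Over 299 aligned bases 5 differed, an identity of 98.3%, and capitals mark them. The start regions are shown as a further measure of how alike the pair is. Whether this likeness bears on the levels of the 2 genes, described below, was not tested.
Cyp2a4: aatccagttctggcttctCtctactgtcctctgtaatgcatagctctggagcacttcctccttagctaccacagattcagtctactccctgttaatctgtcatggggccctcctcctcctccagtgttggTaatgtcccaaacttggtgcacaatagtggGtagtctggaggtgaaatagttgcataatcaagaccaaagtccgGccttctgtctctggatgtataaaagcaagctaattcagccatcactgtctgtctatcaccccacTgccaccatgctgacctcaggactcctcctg
Cyp2a5: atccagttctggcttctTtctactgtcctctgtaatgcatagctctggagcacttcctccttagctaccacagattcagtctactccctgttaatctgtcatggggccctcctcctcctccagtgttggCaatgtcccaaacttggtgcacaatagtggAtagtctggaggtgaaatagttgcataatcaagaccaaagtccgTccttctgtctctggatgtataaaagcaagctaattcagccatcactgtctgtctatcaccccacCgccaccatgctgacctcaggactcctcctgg
Windows of this length were found for Rtn4, Ntrk2, Cyp2a4 and Prom1, 7 windows in all. None of the 7 held the STAT5 motif TTCNNNGAA on either strand, against 8.30% of 32851 mouse windows. The HNF6 motif ATTGAT was also in none, against 7.54%, and the HNF4A motif CAAAGTCCA in none, against 0.475%. These counts describe letters in short windows and say nothing of whether a factor binds there or elsewhere.

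Abcd2 and Rtn4 were higher in every HFHS liver than in any LFLS liver. Ntrk2 was above every LFLS liver in 6 of the 7 HFHS livers, with a wide spread on HFHS. Cyp2a4, Cyp17a1 and Prom1 overlapped widely between the diets. All 6 log2 differences were above 0, a direction that 48.7% of the tested genes shared. At a Benjamini-Hochberg adjusted p under 0.05 in edgeR's quasi-likelihood test, 3 of the 6 passed, all as higher, where 2.81% of the tested genes passed and 1.37% passed as higher. For 2 of the 6 no HFHS mouse was as low as any LFLS mouse, as for 0.854% of the tested genes. The genes were picked on this comparison, so nothing is read from these counts.

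**Figure D1:**
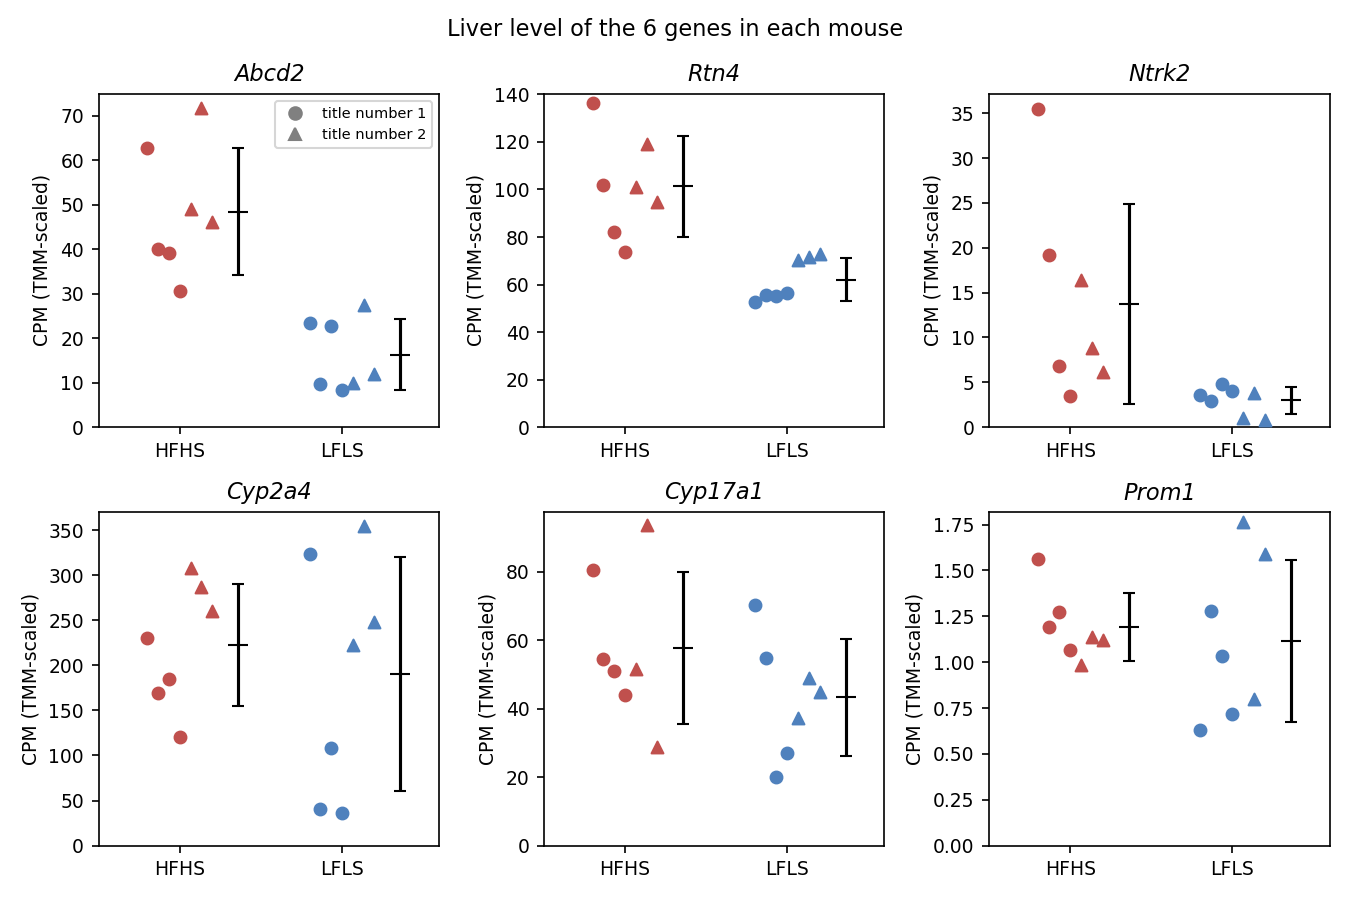
Liver level of the 6 genes in each of 14 mice in CPM after TMM scaling (y axis, linear, from 0), with HFHS mice in red on the left and LFLS mice in blue on the right. Circles are mice of title number 1, triangles of title number 2, and the black bar is the mean ± SD of 7 mice. The diets are apart for Abcd2 and Rtn4, nearly so for Ntrk2, and overlap for Cyp2a4, Cyp17a1 and Prom1.

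Abcd2 (ENSMUSG00000055782) lies at chr15:91145871-91191799 on the minus strand of GRCm38. It stood at 62.8, 40.1, 39.1, 30.6, 49.1, 71.9 and 46.0 CPM in HFHS 1 to 7, against 23.4, 9.66, 22.8, 8.38, 10.0, 27.5 and 12.0 CPM in LFLS 1 to 7. The diets did not overlap, although HFHS 4 stood only just above LFLS 6. Within LFLS the values fell into 3 mice over 20 CPM and 4 between 8.38 and 12.0 CPM, and both kinds occurred in both title numbers. The mean was 48.5 ± 14.4 CPM in HFHS mice and 16.2 ± 7.98 CPM in LFLS mice (SD, n = 7 each), a log2 difference of 1.58 ± 0.29 (SE). Within title number 1 it was 1.44 ± 0.36 and within title number 2 it was 1.77 ± 0.37. The related half-transporter genes Abcd3 and Abcd4 did not pass the diet test, with differences of 0.17 ± 0.17 and 0.02 ± 0.11 on the log2 scale.

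Rtn4 (ENSMUSG00000020458) lies at chr11:29692947-29744331 on the plus strand, with an exon overlap with Eml6 on the opposite strand. Since the labels do not say that strand was kept, reads of that overlap cannot be assigned. Rtn4 stood at 136, 102, 82.2, 73.7, 101, 119 and 94.8 CPM in HFHS 1 to 7, against 52.7, 55.6, 55.2, 56.3, 70.5, 71.5 and 72.7 CPM in LFLS 1 to 7. The diets did not overlap, with HFHS 4 and LFLS 7 nearest to each other. Within LFLS the 4 mice of title number 1 lay between 52.7 and 56.3 CPM and the 3 of number 2 between 70.5 and 72.7 CPM, so each title number was tight and the numbers were apart. These are the same LFLS groups of mice that differed in GC correlation, mitochondrial share and Kupffer markers, whose part in Rtn4 was not tested. In HFHS mice the title numbers overlapped, with means of 98.5 ± 27.7 CPM (SD, n = 4) for number 1 and 105 ± 12.5 CPM (SD, n = 3) for number 2. The overall means were 101 ± 21.2 CPM in HFHS mice and 62.1 ± 8.98 CPM in LFLS mice (SD, n = 7 each). The log2 difference was 0.71 ± 0.13 (SE), with 0.86 ± 0.18 within title number 1 and 0.56 ± 0.10 within number 2. Among the other reticulons and Nogo receptors tested, none passed: Rtn3, the most abundant of them by counts, differed by 0.06 ± 0.10, Rtn1 by -0.03 ± 0.29, the mitochondrial protein gene Rtn4ip1 by 0.24 ± 0.11 and the receptor gene Rtn4rl1 by -0.43 ± 0.16.

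Ntrk2 (ENSMUSG00000055254) lies at chr13:58806569-59133970 on the plus strand. It varied most among the 6 genes from mouse to mouse on HFHS. It stood at 35.5, 19.2, 6.81, 3.46, 16.5, 8.87 and 6.11 CPM in HFHS 1 to 7, against 3.54, 2.88, 4.86, 4.02, 1.04, 3.81 and 0.807 CPM in LFLS 1 to 7. In 6 of the 7 HFHS mice Ntrk2 was above every LFLS mouse, and HFHS 4 lay inside the LFLS range. The highest HFHS value was 10.3 times the lowest. The means were 13.8 ± 11.2 CPM in HFHS mice and 2.99 ± 1.53 CPM in LFLS mice (SD, n = 7 each), a log2 difference of 2.20 ± 0.50 (SE). Within title numbers 1 and 2 it was 2.10 ± 0.61 and 2.51 ± 0.60. HFHS 1, the highest library for Ntrk2, was also the highest for stellate cell markers, at 675 CPM against 270 to 343 CPM in the other HFHS libraries and 250 to 321 CPM in LFLS libraries. None of the 7 stellate markers passed the diet test, and their part in the Ntrk2 values was not tested. Without HFHS 1 the difference was 1.75. Markers of neurons and Schwann cells, which also express Ntrk2, summed to 11 to 19.2 CPM in HFHS libraries and 9.65 to 15.0 CPM in LFLS libraries. Of the 2 that could be tested 1 passed as higher, and HFHS 1 had the lowest sum among HFHS libraries. The ligand gene Bdnf differed by 0.40 ± 0.14 and did not pass, nor did the ligand gene Ntf3 (-0.25 ± 0.22) or the sorting receptor gene Sort1 (-0.30 ± 0.15).

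Abcd2 and Rtn4 passed in each of the 14 fits that left out 1 library, with log2 differences of 1.45 to 1.76 and 0.62 to 0.77. Ntrk2 passed in 8 of the 14, with differences of 1.75 to 2.37. The 6 in which it did not were those without 1 of HFHS 1, HFHS 2, HFHS 5, LFLS 2, LFLS 4 and LFLS 7. Without the 6 libraries over 50 CPM of exocrine pancreas markers, which leaves 4 mice per diet, none of the 3 genes passed. Their log2 differences there were 1.54 for Abcd2, 0.70 for Rtn4 and 2.92 for Ntrk2, against 1.58, 0.71 and 2.20 in all mice, and 13 of all genes passed. The part of the pancreas transcripts in the calls was not tested. With an offset for GC content all 3 genes passed, at log2 differences of 1.27 for Abcd2, 0.64 for Rtn4 and 2.19 for Ntrk2. The genes were picked on this diet comparison, and every refit reuses its values. The passes in these fits are therefore a description of how the calls depend on libraries and settings, and no support for a diet difference.

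**Figure D2:**
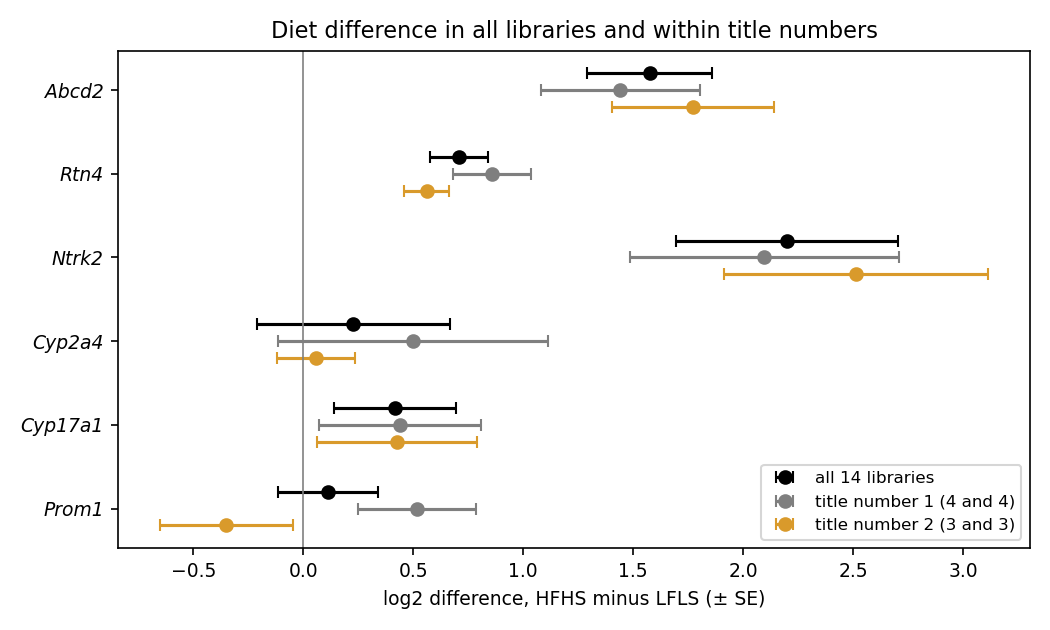
Log2 difference in level, HFHS minus LFLS (x axis), with its SE for each of the 6 genes, in all 14 libraries (black), in title number 1 (grey, 4 mice per diet) and in title number 2 (orange, 3 mice per diet). Abcd2, Rtn4 and Ntrk2 lie above 0 in both title numbers, and Prom1 lies at 0.52 in number 1 and -0.35 in number 2.

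Cyp2a4 (ENSMUSG00000074254) lies at chr7:26307169-26315088 on the plus strand, with Gm42375 overlapping its exons on the opposite strand. It stood at 231, 170, 185, 121, 307, 287 and 260 CPM in HFHS 1 to 7, against 324, 40.5, 108, 36.5, 222, 354 and 248 CPM in LFLS 1 to 7. LFLS mice were at once the highest and the lowest, and the HFHS values lay between these extremes. The means were 223 ± 67.6 CPM in HFHS mice and 190 ± 130 CPM in LFLS mice (SD, n = 7 each), and the log2 difference of 0.23 ± 0.44 (SE) was smaller than its error. LFLS 2 and LFLS 4, the lowest for Cyp2a4 and for Abcd2, held 1481 and 73.7 CPM of exocrine pancreas markers. LFLS 6, with 8.98 CPM of them, was the highest LFLS library for both genes, while LFLS 5, with 9.25 CPM, had 10.0 CPM of Abcd2. Other libraries went the other way. HFHS 5, with the most pancreas transcripts on HFHS (401 CPM), had the highest HFHS level of Cyp2a4, and LFLS 3, with 190 CPM of them, was among the 3 LFLS mice high in Abcd2. The part of these transcripts was not tested.

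The size and the sign for Cyp2a4 differed between settings. With limma voom and quality weights its log2 difference was 1.55 and passed, at an adjusted p of 0.0248 in a range of 0.0248 to 0.968 over all settings. Those weights were 0.191 for LFLS 1 and 0.451 to 0.474 for LFLS 5 to 7, the 4 LFLS libraries with the most Cyp2a4, and 1.64 and 2.18 for LFLS 2 and 4, those with the least. Without the libraries high in pancreas markers the difference was -0.41. No other setting called it.

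Cyp2a5 (ENSMUSG00000005547) stood at 273, 263, 289, 187, 462, 394 and 406 CPM in HFHS 1 to 7, against 594, 59.3, 174, 60.5, 358, 586 and 376 CPM in LFLS 1 to 7. It followed Cyp2a4 from mouse to mouse, and its log2 difference was 0.04 ± 0.45. The sum of both genes ran from 97.0 to 940 CPM over the 14 mice, a 9.69-fold range. The share of Cyp2a4 in that sum stayed far closer, at 40.6 ± 2.53% in HFHS mice and 38.2 ± 1.69% in LFLS mice (SD, n = 7 each). Its highest value was 45.8% in HFHS 1 (95% Wilson interval 45.2 to 46.4%) and its lowest 35.3% in LFLS 1 (34.8 to 35.8%), where the intervals cover counting error only. Because many reads could belong to either gene, the split between them depends on how the authors treated such reads, which no source used here gives. None of the 6 P450 genes of this group passed: Cyp2a12 differed by 0.14 ± 0.09, Cyp2a22 by 0.33 ± 0.11, Cyp2f2 by -0.32 ± 0.14 and Cyp2g1 by 0.13 ± 0.40.

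**Figure D3:**
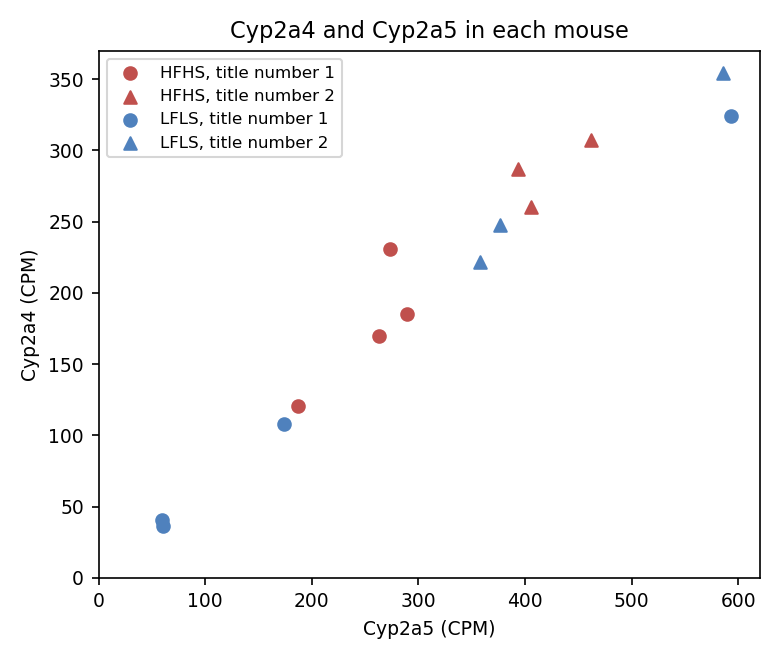
Cyp2a4 (y axis) against Cyp2a5 (x axis) in each of 14 mice, both in CPM on linear axes from 0, with HFHS mice in red and LFLS mice in blue, circles for title number 1 and triangles for number 2. The mice lie close to 1 line from LFLS 4 and LFLS 2 at the low end to LFLS 1 and LFLS 6 at the high end, with HFHS mice between.

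Cyp17a1 (ENSMUSG00000003555) lies at chr19:46667165-46673172 on the minus strand. It stood at 80.4, 54.6, 51.0, 44.0, 51.7, 93.8 and 28.8 CPM in HFHS 1 to 7, against 70.4, 54.9, 20.0, 27.2, 37.2, 49.1 and 44.8 CPM in LFLS 1 to 7. The diets overlapped over most of their range. The means were 57.8 ± 22.1 CPM in HFHS mice and 43.4 ± 17.1 CPM in LFLS mice (SD, n = 7 each), a log2 difference of 0.42 ± 0.28 (SE). Cyp17a1 is also active in some steroid-forming glands. Whether mouse adrenal cortex is among them is not shown by these data. The 5 markers of adrenal cortex summed to 10.8 to 29.9 CPM in HFHS libraries and 16.2 to 40.2 CPM in LFLS libraries, and Cyp11b1 was at the lowest count of the table in all 14. Neither of the 2 adrenal markers that could be tested passed. The sums describe traces of adrenal tissue and say nothing of a source of Cyp17a1 reads, which was not tested. Partner genes of such P450 enzymes did not pass. The haem-binding protein gene Pgrmc1 differed by 0.36 ± 0.12, Cyb5, the cytochrome b5 that favours the lyase reaction, by 0.28 ± 0.15, Cyb5b by 0.25 ± 0.14 and Cyb5r3 by -0.16 ± 0.18.

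Prom1 (ENSMUSG00000029086) lies at chr5:43993620-44102032 on the minus strand, with Gm16401 overlapping its exons on the opposite strand. It was the lowest of the 6 genes, with 1.57, 1.19, 1.27, 1.07, 0.984, 1.14 and 1.12 CPM in HFHS 1 to 7, against 0.628, 1.28, 1.04, 0.720, 1.76, 0.802 and 1.59 CPM in LFLS 1 to 7. LFLS mice spread wider than HFHS mice, with means of 1.19 ± 0.188 CPM in HFHS mice and 1.12 ± 0.441 CPM in LFLS mice (SD, n = 7 each). The log2 difference was 0.11 ± 0.23 (SE), with 0.52 within title number 1 and -0.35 within number 2, of opposite sign. Prom1 is also a marker of bile duct epithelium. Markers of that tissue summed to 55.2 to 164 CPM in HFHS libraries and 52.6 to 89.6 CPM in LFLS libraries, with the highest sums in HFHS 1 and LFLS 5, and none of the 6 tested of the 7 markers passed. HFHS 1 and LFLS 5 were also the highest libraries for Prom1 within their diets, and the part of bile duct cells in the Prom1 values was not tested. The related Prom2 was too low to be tested.

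Per kilobase of the longest coding transcript, Cyp2a4 was the most abundant of the 6 genes, with 128 ± 38.9 CPM per kb in HFHS mice and 110 ± 74.9 in LFLS mice (SD, n = 7 each). Cyp17a1 followed with 24.0 ± 9.19 and 18.1 ± 7.09 CPM per kb in HFHS and LFLS mice, and Rtn4 with 21.9 ± 4.59 and 13.4 ± 1.94. These neighbours did not differ beyond their spread. Abcd2 had 8.77 ± 2.60 CPM per kb in HFHS mice and 2.94 ± 1.44 in LFLS mice. Ntrk2 had 1.58 ± 1.28 CPM per kb in HFHS mice and 0.342 ± 0.175 in LFLS mice, and Prom1 had 0.292 ± 0.0459 and 0.273 ± 0.108 in HFHS and LFLS mice. The order was the same in both diets, and on LFLS the levels of Ntrk2 and Prom1 lay within their spread of each other.

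The title number was not used to choose the genes, so it could be tested. With diet in the model none of the 6 genes passed, where 28.8% of the tested genes did, and DESeq2 called none either. Over all tested genes 7311 of 17223 had an unadjusted p under 0.05 in edgeR, and of the 6 genes 1 did. That gene was Cyp2a4, which differed by 0.90 ± 0.39 (log2, SE), title number 2 minus number 1, at an adjusted p of 0.0904 by edgeR. Its means were 285 ± 23.5 CPM (SD, n = 3) in number 2 and 176 ± 45.4 CPM (SD, n = 4) in number 1 among HFHS mice. Among LFLS mice they were 275 ± 70.1 CPM (SD, n = 3) in number 2 and 127 ± 135 CPM (SD, n = 4) in number 1. Without LFLS 1 the Cyp2a4 difference was 1.38 and passed (adjusted p 0.00804 by edgeR, in a range of 0.00804 to 0.185 over all settings).

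In the same direction Rtn4 differed by 0.24 ± 0.12 (edgeR, adjusted p 0.142), and it passed in the fit without HFHS 1, at 0.34 (adjusted p 0.0123 by edgeR, in a range of 0.0123 to 0.515). Ntrk2 differed by -0.83 ± 0.47, Abcd2 by 0.20 ± 0.28, Prom1 by 0.20 ± 0.23 and Cyp17a1 by 0.02 ± 0.28, with adjusted p values of 0.189 to 0.965 by edgeR. None of these 4 passed under any setting. A test of whether the diet difference itself differed between title numbers called 0 of the 6 genes, where 0.883% of all tested genes passed. None of the 6 had an unadjusted p under 0.05 in edgeR, where 3886 of the 17223 tested genes did. DESeq2 called none of the 6 either. The diet difference in title number 2 minus that in number 1 was furthest from 0 for Prom1, at -0.86 ± 0.41 (edgeR, adjusted p 0.232).

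How the 6 genes varied together from mouse to mouse was not part of the choice either. Each library's log2 CPM was taken as a deviation from the mean of its diet and title number, and the 15 pairs of genes were compared over 14 mice. Abcd2 and Cyp2a4 deviated together, with Pearson's r = 0.792 (permutation p = 0.00141, adjusted p 0.0211 over 15 pairs) and Spearman's rho = 0.93 (permutation p = 0.00152, adjusted 0.0228), both two-sided. Without the 2 libraries farthest from the median of Abcd2, r was 0.831, and it was 0.787 among HFHS mice and 0.814 among LFLS mice. The other 14 pairs did not pass, and 11 of the 15 coefficients were positive, with a median of 0.308. How often other pairs of genes reach such coefficients in these libraries was not measured.

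Abcd2 and Cyp2a4 no longer passed when 1 of HFHS 1, HFHS 4, LFLS 5, LFLS 6 and LFLS 7 was left out (permutation, adjusted p 0.0573 to 0.171). With r between 0.73 and 0.89 over all omissions, the coefficient moved little. With deviations from the diet means alone r was 0.659 (permutation, adjusted p 0.328), and with scaling by library totals alone it was 0.789 (permutation, adjusted p 0.0525). Both genes were lowest in HFHS 4 within HFHS and in LFLS 4 within LFLS.

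**Figure D4:**
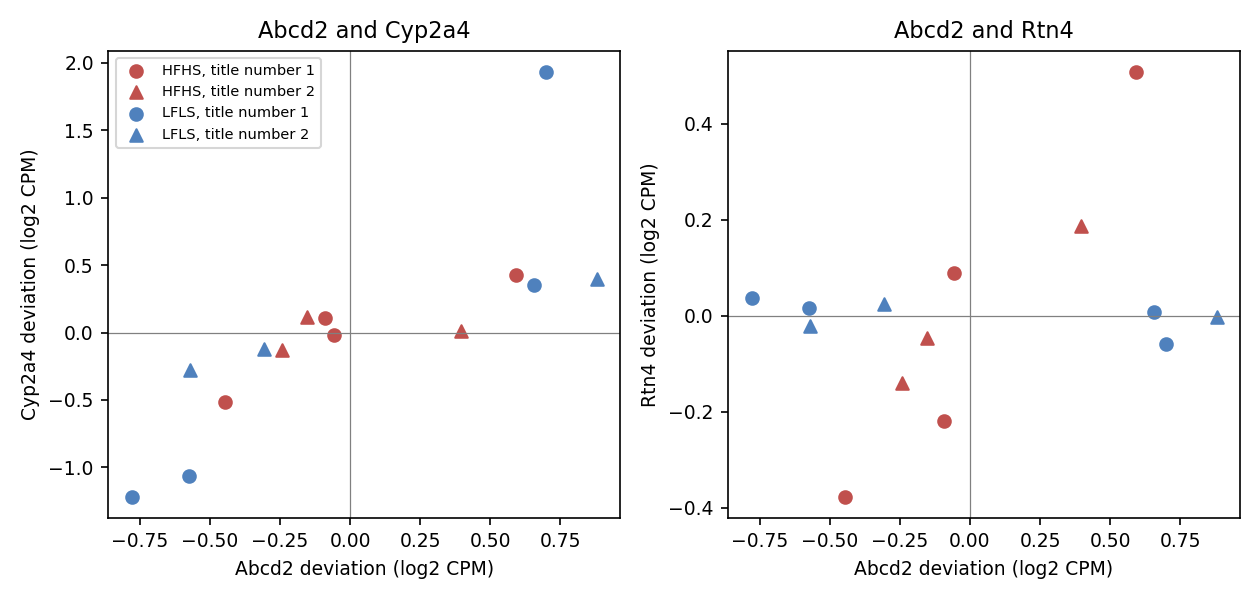
Deviation of each library from the mean of its diet and title number, in log2 CPM, for Abcd2 (x axes) against Cyp2a4 (left panel, y axis) and against Rtn4 (right panel, y axis). HFHS mice are red and LFLS mice blue, with circles for title number 1 and triangles for number 2. Abcd2 and Cyp2a4 rise together in both diets, and Abcd2 and Rtn4 do so among HFHS mice (r = 0.935) but not among LFLS mice (r = -0.52).

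Within each diet the pattern of coefficients was unlike. Among the 7 HFHS mice all 15 pairs had a positive r, from 0.457 to 0.935 with a median of 0.787. Of them 3 passed the exact permutation test at its smallest possible p of 0.00694 (adjusted p 0.0347 over 15 pairs). They were Abcd2 with Rtn4 (0.935), Abcd2 with Cyp17a1 (0.84) and Rtn4 with Cyp17a1 (0.718). Without the 2 libraries farthest from the median of the first gene these were 0.793, 0.489 and 0.751, the largest drop being for Abcd2 with Cyp17a1. By Spearman's rho none of the 15 passed the exact permutation test after adjustment, at adjusted p values of 0.104 or more. HFHS 4 was the lowest HFHS library for Abcd2, Rtn4, Ntrk2 and Cyp2a4, and HFHS 1 or HFHS 6 was the highest for all genes but Cyp2a4. HFHS 1 deviated upward in all 6 genes, by 0.30 to 1.65 on the log2 scale. It also had the lowest hepatocyte marker sum of the 14 libraries, at 55130 CPM, and the highest HFHS sums of bile duct (164 CPM), stellate (675 CPM), Kupffer (353 CPM) and endothelial markers (290 CPM). Their part in the coefficients was not tested. With the 2 farthest libraries left out for each pair, 12 of the 15 coefficients were positive. The share of other gene pairs with such coefficients in these libraries was not measured. These counts therefore show nothing particular to the 6 genes.

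Among the 7 LFLS mice 6 of 15 coefficients were positive, from -0.843 for Rtn4 with Cyp2a4 to 0.814 for Abcd2 with Cyp2a4, with a median of -0.138. None passed the exact permutation test after adjustment, and 1 had an unadjusted p under 0.05 for Pearson's r. The lowest adjusted p by exact permutation was 0.208 for Pearson's r and 0.104 for Spearman's rho, both for Abcd2 with Cyp2a4. Whether the coefficients differed between the diets was not tested.

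The genes whose levels followed each of the 6 most closely were sought among 14797 tested genes of at least 1 CPM, by Pearson's r over 14 mice, as a description with no test. The points share library depth and scaling. On deviations from the means by diet and title number, Abcd2 was followed by Vnn3 (0.97), Slc22a15 (0.95) and Ubtd1 (0.95), and Rtn4 by Tead1 (0.97), Fli1 (0.97) and ENSMUSG00000055593 (0.96). Ntrk2 was followed by Rcan1 (0.95), Fam126a (0.94) and 4930519F09Rik (0.94), of which the last 2 were also called higher on HFHS. Cyp2a4 was followed first by Cyp2a5 (0.99), then by Zfp839 (0.98) and Zfand3 (0.97). Cyp17a1 and Prom1 had looser company: Slc16a5 (0.89), Shkbp1 (0.88) and Gm11695 (0.85) for Cyp17a1, and Hist1h1d (0.93), Ap1g1 (0.93) and Csgalnact1 (0.89) for Prom1.

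Without removing diet and title number, the closest genes to Abcd2 were Cyp2c38 (0.98), a P450 that rose by 1.67 on HFHS, the lipoprotein receptor gene Vldlr (0.96) and Acss3 (0.96), all 3 called higher on HFHS. For Rtn4 they were Arpp19 (0.96), Cyp2b13 (0.94) and Tmem64 (0.94), and for Ntrk2 they were Wfdc2 (0.94), Fbxo40 (0.93) and Pdlim2 (0.92). Cyp2b13 is itself on the list of female-biased liver genes described next. For Cyp2a4 they were Cyp2a5 (0.99), Gm16559 (0.96) and the alcohol dehydrogenase gene Adh1 (0.95), none called by diet. For Cyp17a1 they were Gm16253 (0.85), Dqx1 (0.81) and Asrgl1 (0.80), and for Prom1 they were Stam (0.83), Spata6 (0.83) and Srgn (0.81).

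The 6 genes belong to a wider list of 28 female-biased liver genes, of which 22 were tested. By the same edgeR test 7 of the 22 were higher and 0 lower on HFHS, against 1.37% and 1.44% of all tested genes, and 15 did not pass. The median log2 difference was 0.62 over the 22 and -0.01 over all tested genes, and 20 of the 22 differences were above 0. The list was drawn up with results of these samples known, so its direction is not independent evidence. The 4 called genes besides Abcd2, Rtn4 and Ntrk2 were Cyp2b9, a P450 with 68.6 ± 97.5 CPM in HFHS mice and 0.177 ± 0.105 CPM in LFLS mice, the prolactin receptor gene Prlr (127 ± 22.0 and 71.2 ± 17.3 CPM in HFHS and LFLS mice), Cyp2b10 (4.81 ± 4.04 and 0.607 ± 0.472) and the SLC22 transporter family gene Slc22a26 (2.50 ± 1.58 and 0.521 ± 0.346), all SD with n = 7. None of the 4 overlapped between the diets, where 0.854% of all tested genes had every HFHS library above every LFLS library. The 4 were named because they passed the diet test, so nothing is read from this. Cyp2b10 is also a classical target of the receptor CAR.

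**Figure D5:**
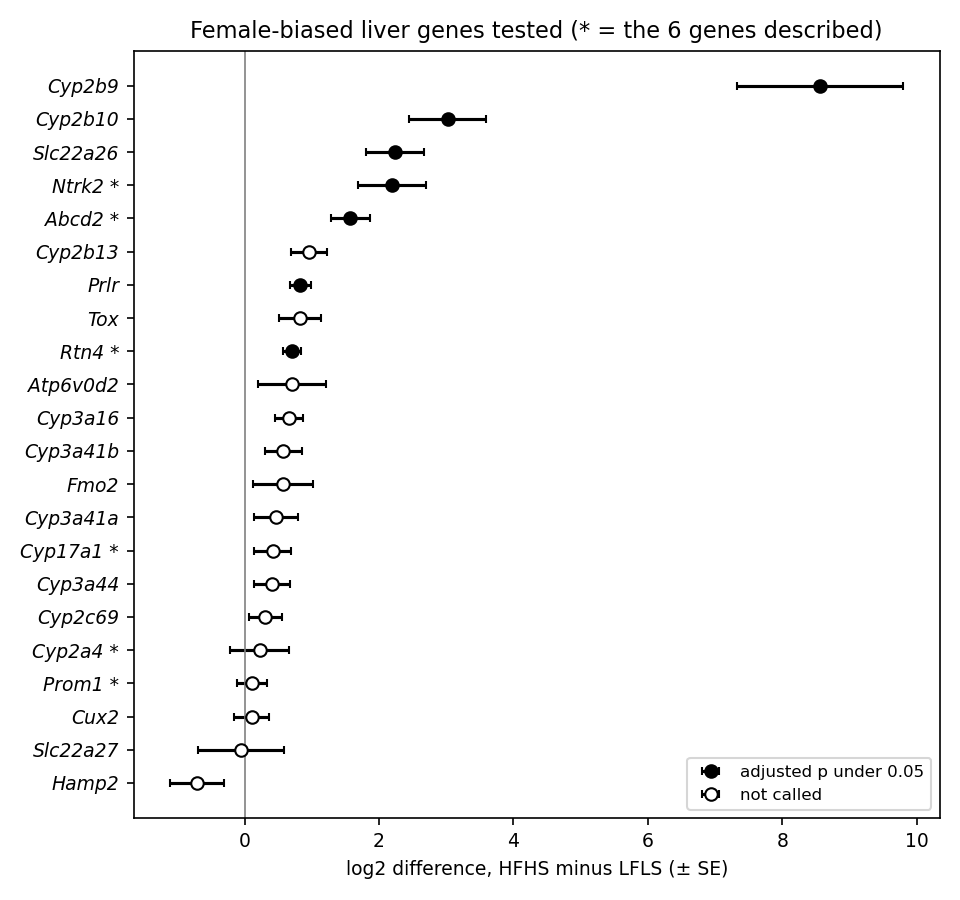
Log2 difference, HFHS minus LFLS (x axis), with its SE for the 22 tested female-biased liver genes, ordered by size. Filled points passed the diet test and open points did not, and the 6 genes described are starred. They spread over the list from Ntrk2 at 2.20 to Prom1 at 0.11, with Cyp2b9 at 8.56 above all others and Hamp2 at -0.71 below.

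Other female-biased genes did not pass, among them Hamp2, a hepcidin gene, at -0.71 ± 0.40, Cux2, a repressor of male-biased genes in mouse liver, at 0.11 ± 0.26, and Slc22a27 at -0.05 ± 0.64. Genes of the list that were too low to be tested included A1bg, Hao2, Sult2a1, Sult2a2 and Sult3a1, none of which exceeded 128 counts in a library. Hao2, which reached that count, stood at 0.204 to 2.60 CPM in HFHS libraries and 0.0654 to 0.120 CPM in LFLS libraries. Sult2a1, Sult2a2 and Sult3a1 had at most 8 counts. Sult2a1 and Sult3a1 are strongly expressed in female mouse liver. Among libraries of title number 2 alone 2 of the list's genes passed as higher, and without the libraries high in pancreas markers none did, against 7 in all mice. Calls fell over all tested genes too, with 134 and 5 passing as higher in these fits, against 236 in all mice.

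Among genes favoured by the pulsatile pattern the calls were all lower. The lists of these genes and of growth hormone signalling were also drawn up with results of these samples known. Their directions are not independent evidence. Of 24 tested male-biased genes 0 were higher, 4 were lower and 20 did not pass, against 1.37% higher and 1.44% lower over all tested genes. Their median log2 difference was -1.02, and 1 difference was above 0, against 48.7% over all tested genes. The 4 were Moxd1, at 1.00 ± 0.874 CPM in HFHS mice and 76.1 ± 74.7 CPM in LFLS mice, Gstp1 (141 ± 46.7 and 311 ± 98.4 CPM in HFHS and LFLS mice), Cspg5 (0.403 ± 0.272 and 1.27 ± 0.375) and Selenbp2 (241 ± 52.1 and 482 ± 229), all SD with n = 7. Of 16 genes listed under growth hormone signalling 2 were lower and 0 higher, against the same 1.44% and 1.37%, with a median of -0.28. The list also holds liver transcription factors such as Hnf4a, and both called genes are of this kind. They were Onecut1, which encodes HNF6, at -2.10 ± 0.52, and the pioneer factor gene Foxa1 at -0.62 ± 0.16, both at an adjusted p of 0.0439 by edgeR. Hnf4a and Socs3 stood just outside, at adjusted p values of 0.0518 and 0.0533 by edgeR. The receptor gene Ghr, at 0.324 ± 0.175, and the kinase gene Jak2, at 0.177 ± 0.093, did not pass. Stat5a, at 0.108 ± 0.183, and Stat5b, at -0.102 ± 0.162, did not pass either. Cish (-2.094 ± 0.565) and Socs2 (-0.986 ± 0.364), also on this list, lay below 0 without passing. Of the 16 differences 4 were above 0, against 48.7% over all tested genes.

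Genes of peroxisomal lipid oxidation, the process Abcd2 supplies, and targets of the lipid sensor PPAR alpha were read against the 2.81% of all tested genes that passed in either direction. Of 15 genes of peroxisomal very long chain fatty acid oxidation 0 were higher and 1 was lower, the elongase gene Elovl2 at -0.46 ± 0.10 (edgeR, adjusted p 0.022), and the median was -0.10. Of 17 canonical targets of PPAR alpha none passed in either direction, with a median of -0.01. In edgeR 1 of the 17, Vnn1, had an unadjusted p under 0.05, at an adjusted p of 0.111. Of the 17223 tested genes 3378 had an unadjusted p under 0.05 in this test. The authors' deposited table, whose log2 fold changes ran in the direction HFHS over LFLS (Pearson's r across 17223 genes 0.997 with the differences given here), had 1.47 for Abcd2, 0.64 for Rtn4 and 2.15 for Ntrk2. For Cyp2a4, Cyp17a1 and Prom1 the authors' deposited table gave 0.08, 0.39 and 0.03. In the authors' deposited table the adjusted p was 0.16 for Abcd2 and 1 for the other 5 genes.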

How the data were processed

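The 6 genes, the gene lists and the tests were chosen with earlier results of these data known. DESeq, TopHat, Bowtie and CASAVA 1.8 are named in the submitters' processing notes, with mouse build mm9 (no source used here names the counter). The deposited counts were whole numbers per Ensembl gene with a lowest value of 1, at which 11120 genes stood in all 14 libraries. The authors' second table gave gene names, signal (means of counts over DESeq size factors), fold, log2 fold change and p-values, per the file headers.

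Tests on the counts used R 4.3.3 and edgeR 4.0.16 (TMM scaling, default filter on low counts by diet, quasi-likelihood F test, Benjamini-Hochberg adjusted p under 0.05 over 17223 genes). Levels are TMM-scaled CPM, and the SE is the log2 difference over the square root of F. Correlations used log2 CPM with a prior count of 2 and 100000 permutations within diet and title number, or all 144 regroupings within a diet. The fits were tested on simulated counts. Libraries of 1 diet correlated at 0.933 or more, and none was duplicated. P-values of the fits set a difference against the spread between mice, and permutation p-values rank r among regroupings of the mice. Other settings were limma's voom with quality weights (version 3.58.1), DESeq2 1.42.0, other scalings and filters, subtraction of 1 from each count, blocks by title number or title pair, each title number alone and each library left out. A GC offset and the removal of libraries high in pancreas markers were added after seeing the data. Coordinates and transcript lengths are from GENCODE vM21 (GRCm38), which was not the build of the counts. Of 186 listed symbols 185 matched. Genes named beside the 6 were, per list, up to 4 with the smallest p, the 3 with the highest r for each gene, with and without centring, and Cyp2a5. Other listed genes (Hamp2, Cux2, Slc22a27, Ghr, Jak2, Stat5a, Stat5b, Cish, Socs2 and those too low to be tested), Xist and Ddx3y were chosen after their values were seen. Some listed genes are not reported here.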

Additional observations from a re-analysis of the deposited data

How the results depend on the processing

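The diet test called 484 genes, 236 of them higher on HFHS, and the number moved to 1258 by DESeq2, 3274 by limma voom with quality weights, 173 with no filter, 1540 with the title number as a block (755 higher), 1484 and 269 in title numbers 1 and 2 alone, 13 without the libraries high in pancreas markers and 133 to 853 with each library left out. With library totals alone 379 of 531 called genes were higher. Of the female-biased genes 7 were higher, against 11 by limma voom, 2 in title number 2 alone, 0 without the pancreas-high libraries and 6 to 9 with each library left out. The title number called 2778 to 5514 genes with each library left out, against 4953. With library totals alone 1204 of 5716 were higher in number 2, and with no filter 845 of 3603, against 2402 of 4953. The interaction called 152 genes, against 1467 by DESeq2, 46 with library totals alone, 2 with no filter and 0 to 1267 with each library left out. The 0, without HFHS 5, was by edgeR. The correlated pairs numbered 1, against 0 with diet-mean centring or library totals alone and 0 to 3 with each library left out. Causes were not tested.

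Signs turned for values near 0. For Cyp17a1 the title number difference was -0.10 with library totals alone and -0.024 with no filter, and -0.18 to 0.18 with each library left out. Its interaction was 0.022 with library totals alone and -0.58 to 0.32 with each library left out, and that of Ntrk2 was -0.056 to 1.41. Abcd2 was not called in title number 2 alone, and Ntrk2 was not called with no filter or in either title number alone. The 7 title pairs share the title number and the title letters, whose meaning the labels do not give. Their correlations were -0.07 to 0.42, with 4 of 7 over 0.1, so whether they pair the mice is unresolved and they were not used as a block in the main test. With the pairs as a replicate block 598 genes were called and 6 female-biased genes, and Ntrk2 stood at 2.03 with an edgeR adjusted p of 0.0506, in a range of 0.0019 to 0.194. In the pair check 3 of 7 HFHS libraries correlated best with their own pair. With the title number as a replicate block Abcd2, Rtn4 and Ntrk2 stayed called, at 1.56, 0.72 and 2.25, again a description because these genes were picked on the diet comparison. At 1 CPM or so, as for Prom1, depth limits precision.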
